A study of Mus musculus with 10 samples.

Results

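The genes described here are 8 genes of cholesterol metabolism, chosen by name from a list of sterol synthesis and efflux genes, out of 24059 gene symbols in the lung RNA-seq count table. Hmgcs1, Idi1, Fdps, Fdft1 and Sqle encode enzymes of sterol synthesis, Insig1 encodes a regulator of that pathway, and Abca1 and Abcg1 encode efflux transporters. All 8 symbols were found in the table. The members hold no gene of uptake, and genes of uptake and endosomal release are described beside them. Lungs came from female C57Bl/6 mice aged 14 weeks that had eaten a semipurified high-fat diet (19% fat and 0.2% cholesterol by weight) for 8 weeks. In the FO group, 91% menhaden fish oil was combined with 9% corn oil. In the CO group, as the series describes it, saturated fat from coconut oil made up 78%, monounsaturated fat from olive oil 13% and polyunsaturated fat from corn oil 9%. Sources on the study differ in the fat shares of the CO diet. They also differ on cholesterol, for which the series gives both diets the same content and another source lists less in the FO diet than in the CO diet. The part of these differences in the values was not tested. Each group had 5 mice, each with 1 library from whole lung flushed with PBS.

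Cells hold their cholesterol in balance by making it from acetyl-CoA through the mevalonate pathway, by taking up lipoproteins, and by exporting the excess. When sterols are scarce, SCAP escorts SREBP2 from the endoplasmic reticulum, where INSIG otherwise retains both, to the Golgi for cleavage, and SREBP2 then turns on the synthesis enzymes. When sterols are plentiful, oxysterols activate the liver X receptors (LXR), which turn on Abca1 and Abcg1. In the lung, alveolar macrophages export the cholesterol of the surfactant they clear through these transporters, and alveolar type 2 cells supply the lipids of surfactant.

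None of the 8 cholesterol genes passed the study's threshold for a difference between the diets, an unadjusted p under 0.05. Hmgcs1 was the best measured of them, with 282 counts over the 10 mice. Its log2 fold change, FO over CO, was -0.15, with a 95% interval of -0.73 to 0.43. Abcg1 had 65 and Abca1 50 counts, with values that leaned to the FO group. Fdft1 had 24 counts, Fdps 16 and Insig1 16, Idi1 had 1 count in 1 mouse, and Sqle was listed at 0 in every mouse. The median gene with any count had 28 counts. Only Hmgcs1 passed edgeR's default filter on low counts. The other members with counts were read from an edgeR fit that kept all 14161 genes having any count. Read against the background, 71 of 2438 genes tested with the default filter were called (2.91%, of which 1.68% higher and 1.23% lower in FO), and in the fit of genes with any count 587 were called (4.15%, with 2.58% higher and 1.57% lower). With edgeR 0 genes past the default filter had an adjusted p under 0.05 and the smallest was 0.377 (Benjamini-Hochberg), and with any count 1 gene passed, S100a9, a neutrophil gene.

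The depth of the libraries differed widely. Totals ranged from 229766 to 1124963 counts per mouse, and Rn45s, the precursor of ribosomal RNA, took between 21.8% (CO mouse 4) and 87.0% (FO mouse 3) of them. Outside Rn45s, CO mouse 1 had the fewest counts, 45177, and FO mouse 2 the most, 473254. Values are given as CPM, counts scaled to a common library size, with TMM factors from the genes past the default filter. On that scale 1 count stood for 0.764 CPM in FO mouse 2, and for 6.45, 6.65 and 5.33 CPM in FO mouse 3, CO mouse 1 and CO mouse 2. A floor of 3 counts per mouse was therefore 2.29 CPM in the deepest library and 19.9 CPM in the shallowest. Intervals and floors that rest on counts cover counting error only. In whole lung, fewer cells of a type and less RNA per cell cannot be told apart.

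Hmgcs1 encodes the cytosolic HMG-CoA synthase that makes HMG-CoA early in the mevalonate pathway, and lies on chromosome 13 from 119690351 to 119708260 (GRCm38, the build that mm10 names). Its counts were 28, 60, 12, 41 and 14 in FO mice 1 to 5, or 32.2, 45.9, 77.4, 50.6 and 45.8 CPM. In CO mice 1 to 5 they were 7, 13, 26, 41 and 40, or 46.5, 69.2, 57.0, 43.0 and 52.5 CPM. The CO values lay wholly within the range of the FO values, whose lowest was FO mouse 1 and whose highest was FO mouse 3, a shallow library. The group means were 50.4 ± 16.6 CPM in FO and 53.7 ± 10.2 CPM in CO (SD, n = 5; two-sided exact permutation p = 0.730). The log2 fold change, FO over CO, was -0.15 (standard error 0.28, 95% interval -0.73 to 0.43, edgeR adjusted p = 0.998). That interval spans a difference in either direction, so a change of moderate size could not be told from none.

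**Figure D1:**
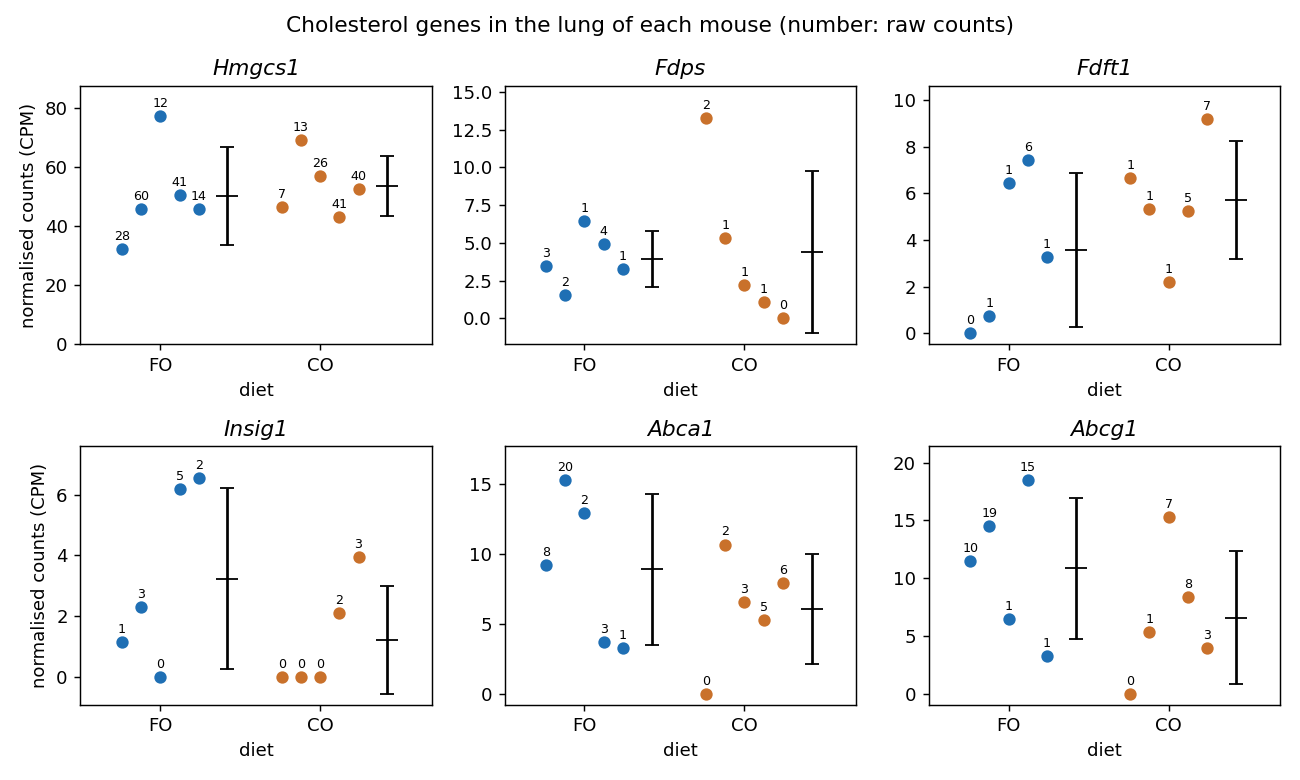
Normalised counts (CPM, vertical axis, a separate scale in each panel) of 6 of the cholesterol genes in each FO (blue) and CO (orange) mouse, with the raw count above each point and the mean ± SD of 5 mice as a black bar. The groups overlap in every panel, and points made of 1 or 2 counts lie as high as points made of many in deeper libraries.

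The other synthesis enzymes were near the limit of these libraries. Fdft1 encodes squalene synthase, which joins farnesyl pyrophosphate into squalene, the step that commits the pathway to sterols. It had 0, 1, 1, 6 and 1 counts in FO mice 1 to 5 and 1, 1, 1, 5 and 7 in CO mice 1 to 5. Only FO mouse 4, CO mouse 4 and CO mouse 5 exceeded the floor. The means were 3.58 ± 3.31 CPM in FO and 5.72 ± 2.54 CPM in CO (SD, n = 5; two-sided exact permutation p = 0.270). In the edgeR fit of genes with any count its log2 fold change was -0.96 (standard error 0.84, 95% interval -2.61 to 0.68, adjusted p = 0.905). Pooling the mice of a group, 9 counts against 15 gave an FO to CO ratio of 0.437 (95% exact binomial interval 0.169 to 1.07). The fit depended on single mice. Without FO mouse 4 the fitted value was -1.96, with an unadjusted p of 0.0496, just under the threshold, whereas it was -0.56 without FO mouse 1, -0.53 without FO mouse 2, -0.57 without CO mouse 5, and -0.17 without both FO mouse 2 and CO mouse 5.

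Fdps encodes the synthase of farnesyl pyrophosphate, the branch point between sterols and protein prenylation. The counts were 3, 2, 1, 4 and 1 in FO mice 1 to 5 and 2, 1, 1, 1 and 0 in CO mice 1 to 5. No CO mouse exceeded the floor, and the highest CPM of Fdps, 13.3 in CO mouse 1, stood for 2 counts. The means were 3.93 ± 1.86 CPM in FO and 4.37 ± 5.37 CPM in CO (SD, n = 5; two-sided exact permutation p = 0.913). The fit weights mice by depth, and its log2 fold change had the other sign, 0.53 (standard error 1.01, 95% interval -1.45 to 2.52, edgeR adjusted p = 0.995), or 0.07 without CO mouse 5 and 1.20 without CO mouse 1. The pooled ratio of 11 to 5 counts was 1.60 (95% exact binomial interval 0.513 to 5.88). No direction can be read for Fdps.

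Idi1, the isopentenyl diphosphate isomerase, had 1 count, in CO mouse 5. Sqle, the squalene epoxidase that is a control point late in the pathway, had none. By counting error alone, that allows up to 0.504 CPM (3 counts) over all 10 libraries, and it sets no limit if the counting missed the gene. No fold is given for Idi1 or Sqle. A 0 in this table is not evidence of absence. Srebf2, which encodes SREBP2, and the tubulin gene Tuba1a were also listed at 0 in every mouse, and Gapdh, which nearly all cells express, had only 30 counts over 10 mice, against 13905 for Actb. Gapdh, Tuba1a and Actb were chosen after their values were seen.

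Sequence shared with other genes differs among the members. Exons of Sqle, Insig1, Abca1 and Abcg1 overlap no exon of another annotated gene. Fdft1 exons share 774 bases with Ctsb on the opposite strand, and Fdps exons share 1124 bases with Gm43738 on the same strand, or 18.3% and 26.7% of their exon bases. Hmgcs1 shares 557 bases with the antisense gene Gm48342, and Idi1 323 bases with the antisense gene Gm48574. The strand setting of the counting is not stated, so reads from these stretches could not be assigned with certainty. Of all stretches of 50 bases in its transcripts, 26.5% of those of Fdft1, 26.2% of Fdps and 25.3% of Idi1 also occur in transcripts of other genes, some of them pseudogenes. The share was 11.6% for Hmgcs1, 2.2% for Insig1, 0.2% for Abcg1 and 0 for Abca1. Sqle shares 2 of 5591 such stretches. The counts of Fdft1, Fdps and Idi1 are uncertain for this reason, apart from depth. By comparison, the share was 75.5% for Tuba1a, 25.1% for Gapdh, 9.1% for Actb and 0.4% for Srebf2. The part of shared sequence in the counts of these genes was not tested.

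Insig1 encodes a sterol-sensing protein of the endoplasmic reticulum that retains SREBP when sterols are plentiful, and it is itself a target of SREBP. It had 1, 3, 0, 5 and 2 counts in FO mice 1 to 5 and 0, 0, 0, 2 and 3 counts in CO mice 1 to 5. Counts were seen in 4 of 5 FO mice and 2 of 5 CO mice, but the CO mice without a count include the shallow CO mice 1 and 2, and only FO mouse 4 exceeded the floor. The means were 3.23 ± 2.97 CPM in FO and 1.21 ± 1.78 CPM in CO (SD, n = 5; two-sided exact permutation p = 0.238). The pooled ratio of 11 to 5 counts was 1.60 (95% exact binomial interval 0.513 to 5.88). The fitted log2 fold change was 0.78 (standard error 1.01, 95% interval -1.20 to 2.76, edgeR adjusted p = 0.960), or 0.37 without FO mouse 4 and 1.52 without CO mouse 5.

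The efflux transporters were somewhat better counted. Abca1, on chromosome 4 from 53030789 to 53159988, encodes the transporter that loads cholesterol and phospholipid onto lipid-poor apolipoprotein A-I. It had 8, 20, 2, 3 and 1 counts in FO mice 1 to 5, or 9.21, 15.3, 12.9, 3.71 and 3.27 CPM. In CO mice 1 to 5 it had 0, 2, 3, 5 and 6 counts, or 0, 10.7, 6.57, 5.25 and 7.87 CPM. FO mouse 2 alone held 40.0% of all Abca1 counts, and FO mice 4 and 5 lay below most CO mice, so the groups overlapped. The means were 8.87 ± 5.37 CPM in FO and 6.07 ± 3.94 CPM in CO (SD, n = 5; two-sided exact permutation p = 0.357). The log2 fold change was 0.52 (standard error 0.63, 95% interval -0.72 to 1.77, edgeR adjusted p = 0.959), or 0.09 without FO mouse 2, and the pooled ratio of 34 to 16 counts was 1.55 (95% exact binomial interval 0.831 to 3.00).

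Abcg1, on chromosome 17 from 31057694 to 31117984, encodes the transporter that moves sterol to HDL particles and whose loss is known to fill alveolar macrophages with lipid. Its counts were 10, 19, 1, 15 and 1 in FO mice 1 to 5, or 11.5, 14.5, 6.45, 18.5 and 3.27 CPM. They were 0, 1, 7, 8 and 3 in CO mice 1 to 5, or 0, 5.33, 15.3, 8.40 and 3.94 CPM. FO mouse 4 was highest and CO mouse 3 came next, while FO mouse 5 lay below every CO mouse but CO mouse 1. The means were 10.9 ± 6.12 CPM in FO and 6.60 ± 5.74 CPM in CO (SD, n = 5; two-sided exact permutation p = 0.278). The log2 fold change was 0.73 (standard error 0.57, 95% interval -0.39 to 1.85, edgeR adjusted p = 0.905), or 0.53 without FO mouse 4 and 1.19 without CO mouse 3. The pooled ratio of 46 to 19 counts was 1.76, with a 95% exact binomial interval (1.01 to 3.19) that leaves out differences between mice.

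By role, the median log2 fold change was -0.12 over the 3 synthesis members with more than 3 counts in all (Hmgcs1, Fdps and Fdft1) and 0.63 over the 2 efflux members, both in the fit of genes with any count, where the median of all genes was 0.05. The synthesis median is the value of Hmgcs1 itself, with Fdft1 at -0.96 and Fdps at 0.53 on either side. With library size alone, which includes Rn45s, the medians by role were -0.60 and 0.14, where the median of all genes was -0.43, and without FO mouse 2 that of the efflux members was 0.38. These are descriptions, and the difference between the roles was not tested. Per kilobase of exon, Hmgcs1 had the highest mean level of the members, 11.3 CPM. Abcg1 had 1.20, Fdft1 1.10, Fdps 0.986, Abca1 0.721 and Insig1 0.718 CPM per kilobase, and these 5 lay within the spread between mice of each other.

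**Figure D2:**
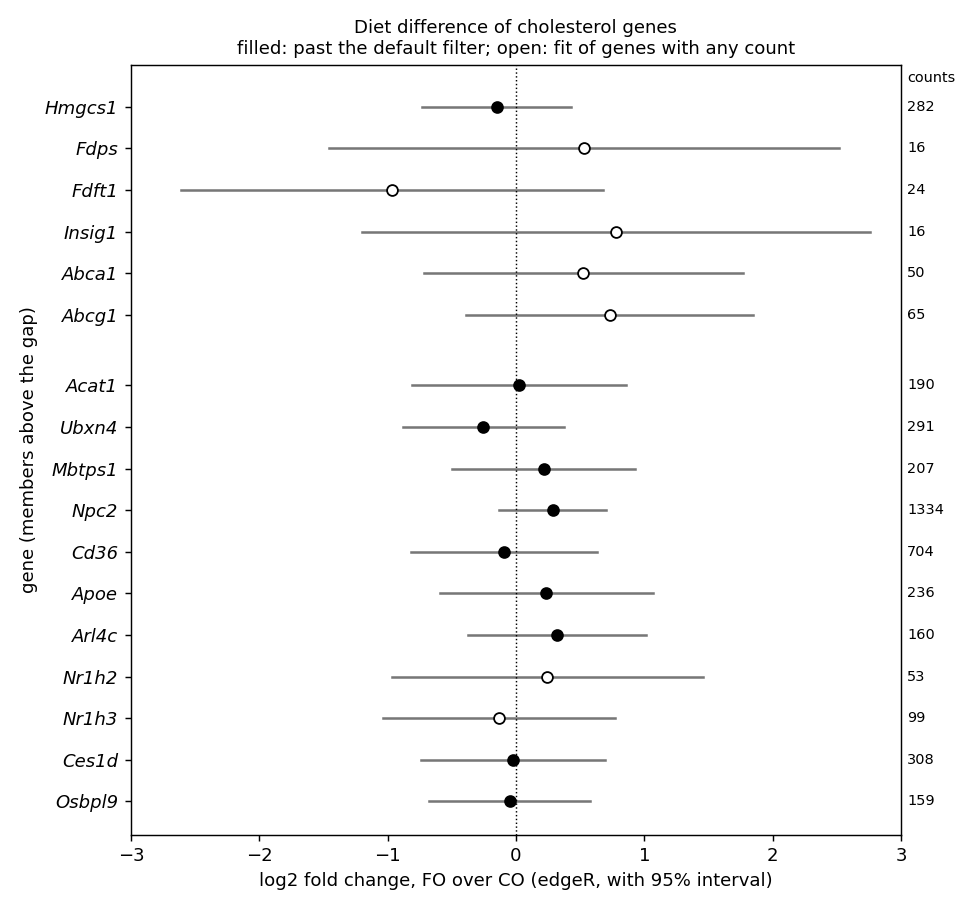
Log2 fold change, FO over CO, of 6 cholesterol genes (above the gap) and of 11 other named genes of cholesterol metabolism, with 95% intervals from edgeR and the counts over 10 mice at the right. Filled points passed the default filter and open points come from the fit that kept genes having any count. Every interval crosses 0, and the narrowest belongs to Npc2, with 1334 counts.

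Of 21 sterol synthesis enzymes, 19 had a count and 2, Acat1 and Hmgcs1, passed the default filter. No gene of this list was called in either fit. In the fit of genes with any count, 9 had positive and 10 negative log2 fold changes. Their median, -0.12, is again the value of Hmgcs1. Msmo1, a sterol demethylase gene named after its values were seen, had 41 counts and was lower in FO, at 3.73 ± 2.83 against 10.7 ± 4.36 CPM (SD, n = 5; two-sided exact permutation p = 0.0238), with overlapping groups. Its edgeR log2 fold change was -1.0 (standard error 0.67, adjusted p = 0.905). Acat1, a thiolase of mitochondria that takes part in ketone metabolism more than in sterol synthesis, had 190 counts and a log2 fold change of 0.02 (standard error 0.40).

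Of 12 genes that control SREBP, 10 had a count, 2 passed the default filter and none was called in either fit. With any count 8 were positive and 2 negative, with a median log2 fold change of 0.37 against 0.05 for all genes, but it was 0.25 for the 6 genes with at least 30 counts and -0.018 for the 2 past the default filter. Ubxn4, which acts in degradation at the endoplasmic reticulum, had a log2 fold change of -0.25 (standard error 0.30). It ran from -0.53 to -0.13 without each mouse. With library size alone it was -0.89, where the median of the genes tested was -0.55. Mbtps1, the protease that makes the first cut of SREBP in the Golgi, had a log2 fold change of 0.22 (standard error 0.34), or 0.055 to 0.60 without each mouse. Srebf1, which encodes SREBP1, had 8 counts over 10 mice, with more than 3 only in FO mouse 2, and the pooled ratio of 6 to 2 counts was 2.18 (95% exact binomial interval 0.390 to 22.1).

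The 17 genes of cholesterol uptake and endosomal release all had a count, and 4 passed the default filter, none of them called. With any count 12 were positive and 5 negative, with a median log2 fold change of 0.13. Npc2 encodes the protein that takes cholesterol from lysosomal lipoproteins to NPC1. It was the most counted gene of the lists, with 255.9 ± 29.0 CPM in FO and 210.2 ± 25.7 CPM in CO (SD, n = 5; two-sided exact permutation p = 0.0397 for this gene alone). Of 74 genes of the lists with a count, 3 had an exact permutation p under 0.05 (Npc2, Msmo1 and Msr1), against 2.78% of all genes with any count. Msr1, a scavenger receptor gene named after its values were seen, had 7 counts in FO and 1 in CO mice (two-sided exact permutation p = 0.0476). For Npc2, FO mice ranged from 210.9 to 288.1 CPM and CO mice from 174.6 to 239.7 CPM, so the groups overlapped. The edgeR log2 fold change of Npc2 was 0.29 (standard error 0.20, adjusted p = 0.998), and it did not pass the unadjusted threshold there. Scaled by library size alone it was -0.25, where the median of the genes tested was -0.55. Cd36, a scavenger receptor for fatty acids and modified lipoproteins that lung capillaries also express, had a log2 fold change of -0.09 (standard error 0.34). In the fit of genes with any count, 1 of the 17 genes was called, Gramd1b, named after its values were seen, with 4 counts in FO and 0 in CO mice.

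Of 19 genes of efflux and LXR targets, 16 had a count, 3 passed the default filter and none was called in either fit. The median log2 fold change of the 16 was 0.25, with 10 positive and 6 negative. Nr1h3, which encodes LXR alpha, had 99 counts, with 14.7 ± 5.27 CPM in FO and 15.3 ± 6.81 CPM in CO (SD, n = 5; two-sided exact permutation p = 0.889). Its log2 fold change was -0.13 (standard error 0.46). Nr1h2, which encodes LXR beta, had 53 counts, 26 of them in FO mouse 2, and a log2 fold change of 0.24 (standard error 0.62), or -0.90 without that mouse. Apoe, which encodes an apolipoprotein that accepts cholesterol and is an LXR target, had 36.4 ± 14.2 CPM in FO and 29.2 ± 21.2 CPM in CO (SD, n = 5; two-sided exact permutation p = 0.548). Its log2 fold change was 0.24 (standard error 0.40), and ran from 0.048 to 0.73 without each mouse. Arl4c, a small GTPase and LXR target, had a value of 0.32 (standard error 0.33).

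Of 17 genes of esterification and oxysterols, 14 had a count, 3 passed the default filter and none was called in either fit. With any count 7 were positive and 7 negative. Ces1d, a lung carboxylesterase, had 308 counts and a log2 fold change of -0.02 (standard error 0.34). Osbpl9, an oxysterol-binding protein relative, had 159 counts and a log2 fold change of -0.05 (standard error 0.30).

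The members did not follow each other closely from mouse to mouse. Over 15 pairs of the 6 members with more than 3 counts, Pearson's r of log2 CPM across the 10 mice was highest for Abca1 with Abcg1, at 0.547 (permutation p = 0.105, adjusted over the pairs 0.559), with Spearman's rho 0.309 (permutation p = 0.387, adjusted 0.730). Without FO mouse 2 and CO mouse 1, the mice farthest from the median of Abca1, r was -0.173. Hmgcs1 with Fdft1 gave r 0.545 (permutation p = 0.103, adjusted 0.559) and rho 0.491 (permutation p = 0.155, adjusted 0.730), and r 0.132 without FO mice 1 and 3. In counts this sparse a weak correlation is no finding. Picked as the highest and not tested, the genes past the default filter whose pattern over the 10 mice was most like that of Hmgcs1 were Ppp1cb (Pearson's r 0.851), Srp68 (0.814) and Psmd1 (0.809), out of 2437 compared. For Abcg1 they were S1pr1 (0.917), Serinc3 (0.915) and Ddx3x (0.885), out of 2438.

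Markers show which cells the lungs contributed. All 10 alveolar type 2 markers, led by Sftpc with 6497 counts, all 8 airway epithelial markers, led by Scgb1a1, and all 8 endothelial markers, led by Pecam1, had counts, as did 5 of 6 alveolar type 1 markers, Aqp5 being at 0. Of the alveolar type 2 markers 8 passed the default filter and none was called, with a summed level of 2479 ± 754.5 CPM in FO and 1920 ± 719.4 CPM in CO (SD, n = 5; two-sided exact permutation p = 0.294). All 12 markers of macrophages, a cell type that expresses Abca1 and Abcg1, had counts. Lyz2 gave 1263 of the 1766 counts, so the sum of these markers rests mainly on 1 gene. Their summed level was 237.0, 401.2, 548.4, 274.2 and 301.2 CPM in FO mice 1 to 5 and 206.0, 293.0, 249.7, 95.5 and 452.8 CPM in CO mice 1 to 5 (two-sided exact permutation p = 0.294). It lay somewhat higher in FO, as did Abca1 and Abcg1, by 93.0 CPM (44.0 to 141.4 without each mouse). Scaled by library size alone the difference was -1.79 CPM, and the part of macrophages in the transporter values was not tested. Like the macrophage sum, the alveolar type 2 sum was lowest in CO mouse 4 and, among CO mice, highest in CO mouse 5. In FO the highest was FO mouse 3 for macrophage and FO mouse 2 for alveolar type 2 markers.

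Other cell types are given for the same lungs. Neutrophil markers, led by S100a9 with 275 of 573 counts, were higher in FO, at 152.3 ± 97.6 against 41.5 ± 11.7 CPM (SD, n = 5; two-sided exact permutation p = 0.0159). This missed the threshold with library size alone (exact permutation p = 0.167) and without CO mouse 1, 3, 4 or 5. The difference, 110.7 CPM with all mice, was 107, 111.3, 109.5 and 110.8 CPM without CO mouse 1, 3, 4 and 5. The part of neutrophils in the cholesterol genes was not tested. Fibroblast markers were 369.6 ± 34.6 and 367.4 ± 58.4 CPM, and alveolar type 1 markers 554.4 ± 94.4 and 574.9 ± 247.0 CPM, in FO and CO. Airway epithelial markers were 1541 ± 301.0 and 1980 ± 813.1 CPM, and endothelial markers 414.5 ± 135.1 and 432.0 ± 91.2 CPM. Heart muscle markers, led by Myh6, were 111.0 ± 61.5 and 66.9 ± 48.0 CPM. Lymphocyte markers (7 in the table), 18.0 ± 12.1 and 23.2 ± 18.9 CPM, and adipocyte markers, 12.3 ± 11.4 and 2.89 ± 3.00 CPM with Lep at 0, were sparse. Of 7 erythroid markers all 6 globin genes were at 0 and Alas2 had 244 counts, or 53.8 ± 10.1 and 32.8 ± 31.9 CPM in FO and CO (SD, n = 5; two-sided exact permutation p = 0.198). Of all markers 1, of neutrophils, was called with the default filter, higher in FO, as were 1.68% of all genes tested. In the fit of genes with any count, 3 of 6 neutrophil and 2 of 6 heart muscle markers were called higher in FO. So were 1 of 12 macrophage markers and Alas2, the 1 erythroid marker with a count, while 1 of 8 airway epithelial markers was lower. Among all genes of that fit 2.58% were called higher and 1.57% lower. Malat1, a long nuclear RNA, was abundant in FO mouse 2, with 8.53% of the counts that were not Rn45s, and in CO mouse 5, with 6.15%, and reached at most 1.05% elsewhere. For the shares of Malat1 and Rn45s the diet groups differed by less than the mice within them (two-sided exact permutation p = 0.794 and 0.492).

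The promoter of Hmgcs1, the only member that the filter kept, is shown because it is the sequence through which sterols are known to act on this gene. RefSeq promoters (GRCm38.p6) were found for 4 members, Hmgcs1, Idi1, Insig1 and Abca1. Both strands of the 250 bases before the start used in the promoter table, which for Abca1 lies inside the gene as placed above, were searched for TCACNCCAC, the core of a sterol regulatory element bound by SREBP, for CCAAT, the box bound by NF-Y, a partner of SREBP, and for AGGTCA, a half-site of nuclear receptors. In the Hmgcs1 promoter, chr13:119690101-119690350 on the plus strand, capitals mark the match to the sterol regulatory element and the matches to the NF-Y box, which here lie on the opposite strand and so read ATTGG.
Hmgcs1: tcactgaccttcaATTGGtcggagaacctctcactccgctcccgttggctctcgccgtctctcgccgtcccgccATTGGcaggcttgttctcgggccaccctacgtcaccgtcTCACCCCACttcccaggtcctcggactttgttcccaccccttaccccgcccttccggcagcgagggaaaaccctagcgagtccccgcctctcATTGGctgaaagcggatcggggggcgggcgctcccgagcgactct
The sterol regulatory element starts 137 bases before the start of the gene, and the NF-Y boxes at 237, 176 and 45 bases before it. Hmgcs1 also holds AGGTCA on the opposite strand, 246 bases before the start. Among all 32851 promoters of this length, 1.05% hold the first motif, 33.85% the second and 14.02% the third. Of the other 3 members none holds the first motif. Idi1 holds the NF-Y box at 45 and 14 bases, Insig1 holds it at 216 bases and AGGTCA at 105 bases, and Abca1 holds none of the motifs. A match describes the letters and is not a measured binding site.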

How the data were processed

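The authors aligned single-end reads to mm10 with STAR 2.4.0f1, sorted them with SAMtools 0.1.19 and deposited raw counts per gene symbol from htseq-count, whose version, annotation and strand setting are not given in the sources used here. Libraries were made with TruSeq RNA v2 or riboZero and run on several sequencer types, and which mouse had which is not given, so these cannot be told apart from diet. Each mouse is a separate animal, and no 2 of the 45 pairs of libraries were identical. Diets and mouse numbers come from the sample titles.

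The deposited counts were tested with edgeR 4.0.16 (R 4.3.3, quasi-likelihood test, TMM, default filter, which asks for the CPM that 10 counts give at the median library size, in enough mice, and for 15 counts in all, Benjamini-Hochberg adjustment over all genes tested). Members below the filter were read from the fit that kept genes having any count. Log2 CPM used a prior count of 2. Single values were tested by exact permutation over 252 assignments, and correlations with 100000 permutations. Scripts were tested on simulated data. Alternatives were DESeq2 1.42.0, its RLE size factors, library size alone, no filter beyond any count, at least 10 counts in every mouse, limma-voom (limma 3.58.1) with quality weights, leaving out Rn45s, each mouse left out, the replicate number as a block, and FO mouse 2 with CO mouse 5 left out. Overlaps, exon lengths and stretches of 50 bases come from GENCODE vM21, positions and promoters from RefSeq (GRCm38.p6).

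Named are the 8 members, Srebf2, Srebf1, Nr1h2, Nr1h3 and Apoe, genes of each list called with the default filter (at most 4) and its 2 most counted genes, the 3 genes most like the most counted synthesis and efflux member, and Rn45s and Malat1. Other genes were named after their values were seen: Gapdh, Tuba1a, Actb, Gramd1b, Msmo1, Msr1, the list genes called in an alternative, S100a9, and the markers with the most counts or with none. The members and lists were chosen with earlier results of these data known. Mitochondrial transcripts were not analysed here, and some genes of the lists are not reported here.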

Additional observations from a re-analysis of the deposited data

Results flagged for a closer look

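Malat1 made up 8.53% of counts not on Rn45s in FO mouse 2, far from the rest of its diet group (Dixon's ratio 0.910, above 0.71), and 6.15% in CO mouse 5, likewise far from its group (ratio 0.848). These were 2 of 42 groups of 5 mice examined, covering cholesterol genes, library shares and marker sums, where chance gives about 2.1. In none of the 6 members with more than 3 counts did a mouse stand apart from the others of its diet. FO mouse 2 also held 40.0% of the Abca1 counts. Without FO mouse 2 and CO mouse 5 together the log2 fold change was -0.14 for Hmgcs1, 0.39 for Fdps, -0.17 for Fdft1, 1.67 for Insig1, 0.24 for Abca1 and 0.45 for Abcg1, where all mice gave -0.15, 0.53, -0.96, 0.78, 0.52 and 0.73.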

How the results depend on the processing

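In the alternatives tried, no fitted member changed direction. Of the members only Fdft1 crossed the threshold, without FO mouse 4. Leaving out each mouse in turn gave log2 fold changes of -0.30 to -0.01 for Hmgcs1, 0.07 to 1.20 for Fdps, -1.96 to -0.53 for Fdft1, 0.37 to 1.52 for Insig1, 0.09 to 0.78 for Abca1 and 0.53 to 1.19 for Abcg1, and 0 to 1 member called. Requiring at least 10 counts in every mouse removed all members, so it gave no fold for them. Library size alone, which moved the median gene to -0.55 (-0.43 with any count), gave -0.67 for Hmgcs1, 0.11 for Fdps, -1.54 for Fdft1, 0.24 for Insig1, 0.10 for Abca1 and 0.18 for Abcg1. That library size includes Rn45s, which took a mean of 72.6% of all counts in FO and 62.2% in CO mice. Limma-voom gave -0.36 for Hmgcs1, 0.33 for Fdps, -1.12 for Fdft1, 0.76 for Insig1, 0.21 for Abca1 and 0.69 for Abcg1.

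The 71 calls became 36 with library size alone (1 higher, 35 lower, against 41 and 30), 587 with any count, 15 with at least 10 counts in every mouse, 117 with limma-voom, and 54 to 154 without each mouse (154 without FO mouse 2). With any count, the 587 calls (365 higher, 222 lower) became 580 with library size alone (85 and 495), 468 with limma-voom (217 and 251), 138 with DESeq2 and 535 to 782 without each mouse. Without FO mouse 2 the balance turned, to 52 higher and 102 lower with the default filter and to 377 and 405 with any count. In the alternatives to the fit with the default filter, the uptake list had 1 call with any count (Gramd1b), and no other list gene was called. In the alternatives to the fit with any count, Nceh1, Cyp7b1, Mylip, Pmvk, Lss, Msr1 and Apoe also passed the threshold, each in 1 to 3 of them. The cause of these shifts was not tested.

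Same-numbered mice did not deviate together, with a mean correlation of -0.12 (-0.41 to 0.03 over 5 pairs) against 0.03 for other pairs. With the replicate block 55 genes were called, or 183 with any count, and no member or list gene was among them. The block gave log2 fold changes of -0.10 for Hmgcs1, 0.45 for Fdps, -0.71 for Fdft1, 1.24 for Insig1, 0.28 for Abca1 and 0.74 for Abcg1.

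Signs turned for some other named genes, none of them called with all mice in the fits reported. Library size alone gave -0.25 for Npc2, -0.41 for Apoe, -0.49 for Acat1, -0.27 for Nr1h2, -0.17 for Arl4c and -0.30 for Mbtps1. With limma-voom the values were -0.25 for Acat1, -0.0077 for Srebf1, -0.39 for Nr1h2, 0.053 for Nr1h3 and 0.00016 for Ces1d. The replicate block gave -0.38 for Nr1h2 and 0.062 for Ces1d, and any count gave 0.014 for Ces1d. Without FO mouse 2 and CO mouse 5 they were -0.086 for Acat1, -0.60 for Nr1h2 and 0.19 for Nr1h3. Without each mouse they ran from -0.41 to 0.069 for Cd36, -0.25 to 0.24 for Acat1, -0.90 to 0.57 for Nr1h2, -0.24 to 0.10 for Nr1h3, and -0.28 to 0.23 for Ces1d. For Osbpl9, which the filter kept in only 5 of these fits, they ran from -0.11 to 0.13.

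The difference in macrophage markers, 93.0 CPM, was -1.79 with library size alone. It ran from 44.0 (without FO mouse 3) to 141.4 CPM (without CO mouse 5) when each mouse was left out. The difference in neutrophil markers, 110.7 CPM, was 89.4 with library size alone, no longer past the threshold. Without each mouse the neutrophil difference ran from 73.4 to 136.0 CPM. It missed the threshold without CO mouse 1, 3, 4 or 5, where it was 107, 111.3, 109.5 and 110.8 CPM. The Malat1 difference ran from -1.18 to 1.58 percentage points, and was -0.041 without FO mouse 2 and CO mouse 5. Median log2 fold changes ran from -0.19 to -0.0020 for the synthesis and 0.38 to 0.88 for the efflux members without each mouse, and were -0.081 and 0.35 without FO mouse 2 and CO mouse 5. Among the fitted members the interval was narrowest for Hmgcs1, the most counted, and Idi1 and Sqle had none.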
